A study of Mus musculus with 9 samples.

Results

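The cholesterol synthesis and SREBP-2 pathway was followed in mouse liver through 28 genes, chosen by name as enzymes of sterol synthesis, the transcription factor SREBP-2, its regulators and its targets. All 28 were found among the 23440 genes listed in the deposited tables, 1 of them (Msmo1) under its older symbol Sc4mol. Of these, 27 were among the 10161 genes with at least 1 TPM (a relative transcript abundance, scaled to the library and corrected for transcript length) in at least 3 libraries and were tested. Soat1 was the member below that level. The comparison covered 3 groups of C57Bl6 liver, with 3 RNA-seq libraries each. The first held mice of 20 to 22 months fed PD-0332991 in chow for 2 weeks, at an amount that the labels give as 450 with the unit mg/k. The second held untreated mice of 20 to 22 months on standard chow, and the third held untreated mice of 2 months on standard chow. PD-0332991, which the treatment protocol spells P-0332991, is palbociclib, which inhibits CDK4 and CDK6, kinases that drive the cell cycle. No treated young mice were among the samples, and nothing in the labels ties each library to a mouse of its own, so p-values measure the spread between libraries, which may be technical.

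Hepatocytes build cholesterol from acetyl-CoA through mevalonate, isoprenoid diphosphates, squalene and lanosterol. The pathway is governed mainly by SREBP-2, encoded by Srebf2, which is made as a membrane protein of the endoplasmic reticulum. When sterols are scarce, the escort protein Scap carries it to the Golgi, where proteases release its active part, and when sterols are plentiful, Insig proteins hold Scap back. The released part binds sterol regulatory elements beside the pathway's own genes, usually with the help of the factors NF-Y and Sp1. Because most of the enzymes and Insig1 are targets of the same factor, their mRNAs are known to move together with feeding, time of day and sterol supply.

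The promoter windows of 4 members are shown to compare which of the letters read by those factors they hold. RefSeq windows of 300 bases around the start site (GRCm38.p6) were available for 23 of the 28 genes, some with more than 1, and a gene was counted when any of its windows matched. Sqle, Fdps, Fdft1, Stard4 and Soat2 had no window and were not searched. On both strands, 3 motifs were searched: TCACNCCAC for the sterol regulatory element, CCAAT for NF-Y and GGGCGG for Sp1. The sterol motif was present in 1 of 23 member genes, Hmgcs1, against 1.44% of all 27025 genes with a window. CCAAT was present in 20 of 23 members, against 41.1% of all genes, and GGGCGG also in 20 of 23, against 38.2%. Hmgcs1 carried its sterol motif as TCACCCCAC on the plus strand, starting at position -137 from the start site, with 4 CCAAT matches and 3 GGGCGG matches around it. Its window lies at chr13:119690101-119690400, plus strand. The window of Insig1 (chr5:28071162-28071461, plus strand) held 1 CCAAT and 3 GGGCGG matches, and that of Mvd (chr8:122443373-122443672, minus strand) held 2 CCAAT and 1 GGGCGG match. The window of Aacs (chr5:125475623-125475922, plus strand) matched none of the 3 motifs and is shown for contrast. The sequences below are written 5′ to 3′ on the gene's own strand, with matches to the sterol motif and to CCAAT on either strand in capitals (ATTGG is CCAAT on the other strand). No matches overlapped in these 4 windows. A match is a run of letters and not a measured binding site. Only these exact letters were searched, so a window without a match was not shown to lack a binding site.
Hmgcs1: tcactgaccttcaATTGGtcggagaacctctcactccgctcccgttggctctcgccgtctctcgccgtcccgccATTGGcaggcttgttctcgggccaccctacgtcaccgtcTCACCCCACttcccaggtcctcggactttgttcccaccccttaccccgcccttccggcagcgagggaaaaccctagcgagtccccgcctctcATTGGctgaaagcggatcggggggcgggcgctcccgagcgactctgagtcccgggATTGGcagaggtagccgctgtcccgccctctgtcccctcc
Insig1: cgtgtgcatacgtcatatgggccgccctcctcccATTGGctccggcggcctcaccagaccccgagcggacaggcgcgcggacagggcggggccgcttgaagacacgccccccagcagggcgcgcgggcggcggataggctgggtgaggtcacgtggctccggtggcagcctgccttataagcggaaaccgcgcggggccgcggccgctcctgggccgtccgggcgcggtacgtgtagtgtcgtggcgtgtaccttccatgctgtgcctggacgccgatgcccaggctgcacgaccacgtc
Mvd: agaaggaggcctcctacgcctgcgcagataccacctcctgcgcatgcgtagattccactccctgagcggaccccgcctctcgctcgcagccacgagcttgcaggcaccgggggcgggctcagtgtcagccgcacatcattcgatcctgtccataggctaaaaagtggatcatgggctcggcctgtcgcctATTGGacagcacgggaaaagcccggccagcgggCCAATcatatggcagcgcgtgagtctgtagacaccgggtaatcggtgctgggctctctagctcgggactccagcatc
Aacs: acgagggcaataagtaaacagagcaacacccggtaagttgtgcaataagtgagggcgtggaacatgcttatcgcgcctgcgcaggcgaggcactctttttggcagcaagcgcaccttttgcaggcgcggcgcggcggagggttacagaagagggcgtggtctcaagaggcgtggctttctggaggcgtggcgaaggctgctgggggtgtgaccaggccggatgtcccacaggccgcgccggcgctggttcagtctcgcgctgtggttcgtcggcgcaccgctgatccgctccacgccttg

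The liver libraries carried their defining markers. The 10 hepatocyte markers summed to between 40600 and 42900 TPM in the PD-0332991 libraries, 37000 and 41600 TPM in the aged untreated libraries and 38200 and 41000 TPM in the young untreated libraries, although Alb was listed at 0 in all 9. The listed genes held 53.1% to 57.6% of the TPM scale per library, and sequencing depth is unknown, because TPM keeps none. Markers of other cells were not level between the groups. Summed neutrophil markers (5 of 6 listed) were 24.3 to 34.1 TPM in PD-0332991 libraries, 8.57 to 25.5 TPM in aged untreated libraries and 2.95 to 3.85 TPM in young untreated libraries, the lowest of all. Summed Kupffer cell markers (8 of 8 listed) were 92.8 to 101 TPM in PD-0332991 libraries, 98 to 148 TPM in aged untreated libraries and 104 to 170 TPM in young untreated libraries. Summed stellate cell markers (6 of 6) were 78.7 to 109 TPM in PD-0332991 libraries, 87.1 to 125 TPM in aged untreated libraries and 113 to 119 TPM in young untreated libraries. Summed lymphocyte markers (6 of 6) were 1.25 to 3.05 TPM in PD-0332991 libraries, 1.14 to 7.43 TPM in aged untreated libraries and 3.21 to 5.55 TPM in young untreated libraries. The sums of sinusoidal endothelial (6 of 6) and cholangiocyte markers (5 of 5) overlapped between all groups. Of these markers, Lyve1 (endothelial) was called lower and Sox9 (cholangiocyte) higher in aged untreated against young untreated livers, with log2 fold changes of -1.22 and 1.03 (limma adjusted p = 0.0449 and 0.0328). In PD-0332991 against young untreated livers, limma called 3 of 8 Kupffer cell markers lower and all 3 tested neutrophil markers higher. It also called 1 of 6 stellate and 1 of 10 hepatocyte markers there, against 6.88% of all genes. No cell type marker was called for PD-0332991 against aged untreated livers. No listed marker was at 0 in every library. Their part in the results was not tested.

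Libraries of the same group stood apart in the pathway itself. In each library, the median over the 27 tested members of the deviation from the gene's mean over all 9 libraries was taken on the log2(TPM + 0.5) scale. It was 0.25, -0.02 and -0.10 in PD-0332991 libraries 1, 2 and 3, -0.23, -0.17 and 0.15 in aged untreated libraries 1, 2 and 3, and 0.03, 0.00 and 0.04 in the young untreated libraries. The members were thus spread widely among the 3 libraries of each aged group and narrowly among the young ones. PD-0332991 library 1 had the highest value of its group in 24 of 27 members (88.9%, against 35.0% of all genes tested), and aged untreated library 3 had the highest of its group in 23 of 27 (85.2%, against 44.0%). The median SD within a group, on the log2 scale, was 0.26 for members and 0.14 for all genes in the PD-0332991 group, 0.25 for members and 0.19 for all genes in the aged untreated group, and 0.13 for members and 0.15 for all genes in the young untreated group. These descriptions were made after the values had been seen and carry no test.

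**Figure D1:**
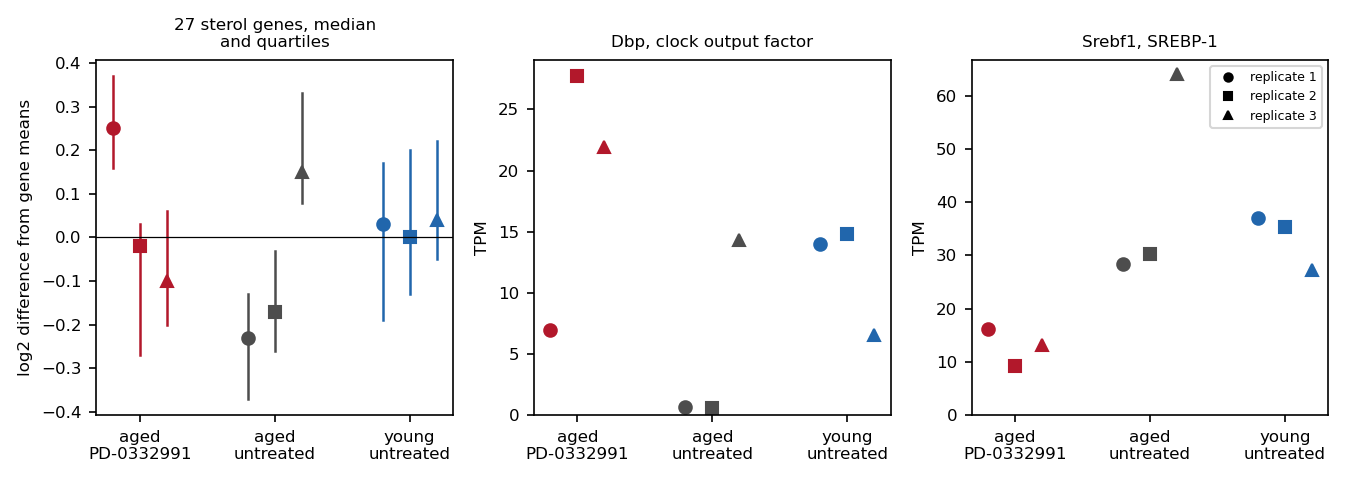
Left, the median (point) and quartiles (bar) over the 27 tested members of the log2(TPM + 0.5) deviation from each gene's mean over the 9 libraries, with 1 point per library; the other panels give the TPM of Dbp and Srebf1 in the same libraries. PD-0332991 library 1 and aged untreated library 3 had the highest medians, at 0.25 and 0.15, and aged untreated libraries 1 and 2 the lowest.

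Aged untreated library 3 was set against the mean of libraries 1 and 2 of its group. Of the 27 members, 24 were higher in library 3, with a median ratio of 1.28, against 1.03 over all genes. The ratio was 2.25 for Insig1, 2.04 for Fdft1, 2.02 for Hmgcs1, 1.96 for Mvk and 1.88 for Mvd. It was 1.06 for Sqle, 1.04 for Insig2, 0.999 for Srebf2 and 0.873 for Aacs, so the members were not raised evenly. In the same library, Dbp, a clock output gene, was at 14.3 TPM, against 0.645 and 0.576 TPM in aged untreated libraries 1 and 2. Srebf1, which encodes the fatty acid synthesis regulator SREBP-1, was at 64 TPM there, against 28.3 and 30.2 TPM. PD-0332991 library 1 was set against libraries 2 and 3 in the same way. In it, 25 of 27 members were higher, with a median ratio of 1.29 (1.01 over all genes), led by Aacs at 2.16, Sc5d at 1.64 and Nsdhl at 1.61. Its Dbp value was 6.99 TPM, against 27.7 and 21.9 TPM in PD-0332991 libraries 2 and 3. Dbp was chosen after its values were seen, and other clock genes did not all follow it. Nr1d1, a clock repressor, was at 55.3, 59.3 and 58.3 TPM in PD-0332991 libraries 1, 2 and 3, and at 12.5, 10.6 and 41.4 TPM in aged untreated libraries 1, 2 and 3. The part of clock phase or feeding state in these differences was not tested.

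The levels of members differed widely. Over the 9 libraries, Fdps had the highest mean at 290 TPM, followed by Ebp at 163, Sc5d at 146, Msmo1 at 125, Insig1 at 111 and Tm7sf2 at 105 TPM. The lowest tested members were Srebf2 at 9.38 TPM, Lbr at 3.19 TPM and Ggps1 at 1.97 TPM, and Soat1 averaged 0.366 TPM. No member was listed at 0 in any library. Some values may mix in reads of other genes that share near-identical stretches or overlap the member. The strand of counting is not given in the sources used here, so overlaps on the opposite strand are also listed. Acat2, with a mean of 28.7 TPM, shares 1477 bases at 99.8% identity with its copy Acat3, which averaged 53.3 TPM. It also shares 445 bases at 98.7% with Tcp1, which averaged 69.9 TPM. Fdps shares such stretches with 4 processed pseudogenes and the protein-coding Gm43738, and Idi1, Ggps1 and Fdft1 have processed pseudogenes (stretches of at least 300 bases at 95% identity or more). Fdft1 also overlaps Ctsb on the opposite strand over 774 bases, and Tm7sf2 overlaps Vps51 on its own strand over 532. Hmgcs1, Idi1, Lss, Cyp51, Scap, Ggps1 and Lbr overlap genes on the opposite strand. The values of these members are uncertain to that extent.

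**Figure D2:**
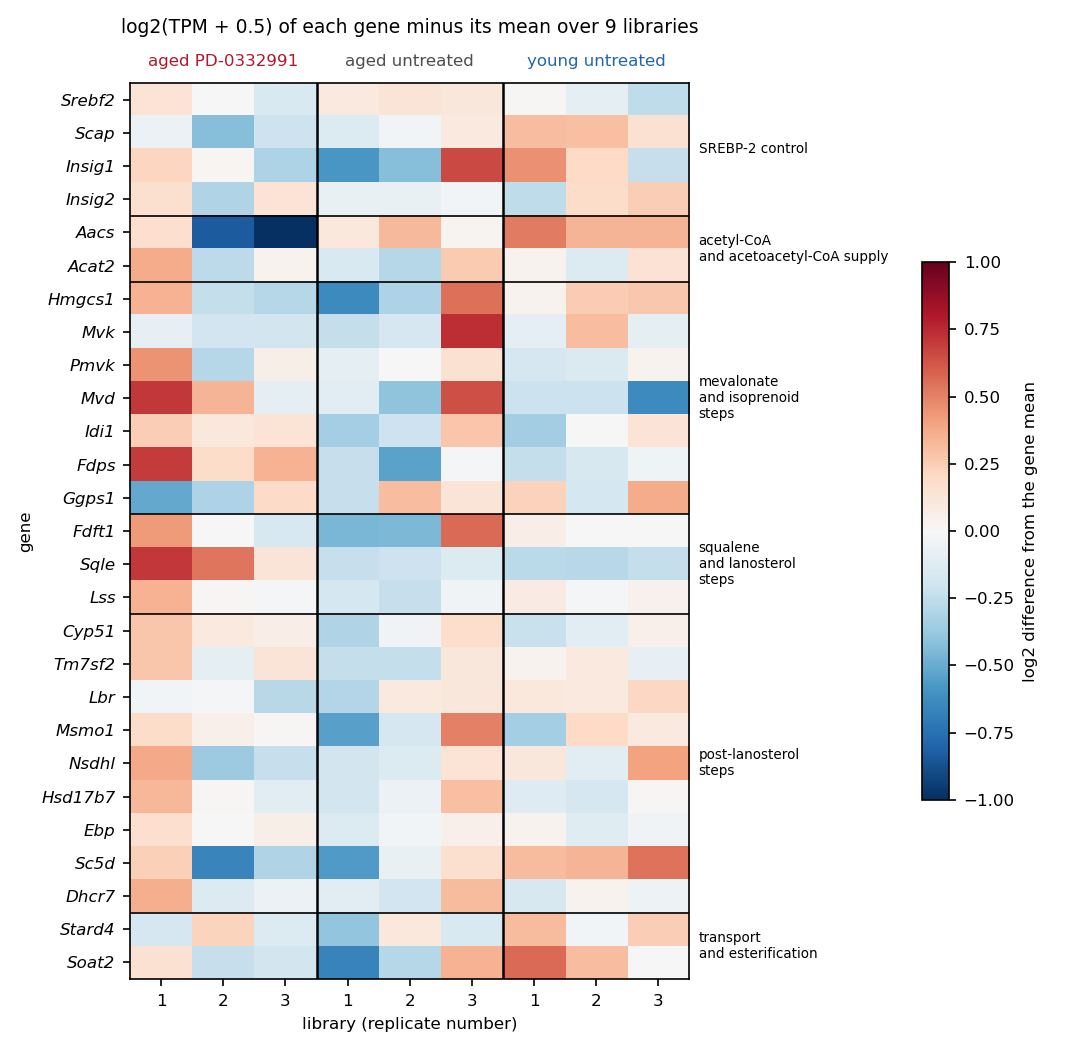
Deviation of each of the 27 tested members (rows, ordered by role in the pathway) from its mean over the 9 libraries (columns), as log2(TPM + 0.5) on a colour scale that ends at 1 above and below. The columns of PD-0332991 library 1 and aged untreated library 3 are high in most rows, with 22 members above their own mean in each, and aged untreated library 1 is low, with 2.

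In aged livers given PD-0332991 against aged untreated livers, 1 of 27 tested members changed. Sqle, squalene epoxidase, an early oxygen-using and rate-limiting step of the sterol branch, rose 1.57-fold. Fdps, which makes farnesyl diphosphate, was 1.6-fold higher without passing the threshold. The call is a Benjamini-Hochberg adjusted p under 0.05 from limma, over all 10161 genes, and of these 1.45% were called (62 genes or 0.610% higher, and 85 genes or 0.837% lower). Median-of-ratios scaling gave 119 genes higher and 55 lower, while quantile normalization gave 88 higher and 56 lower. The log2 fold change was above 0 in 19 of the 27 members, against 33.3% of all genes, with a median of 0.09 for members and -0.09 for all genes. The 3 libraries of each group did not overlap in 3 members, all higher under the drug (Sqle, Fdps and Lss), against 5.72% of all genes higher in that way, and in 0 members lower, against 16.7%. At an unadjusted limma p under 0.05, 3 members were higher and 1 was lower, against 4.96% and 13.3% of all genes. Median-of-ratios scaling moved the median of all genes to 0.01, and the median of members stayed between 0.08 and 0.20 in the settings that kept all libraries. It ran between -0.03 and 0.21 with 1 library left out at a time. The number of members called was 0 without PD-0332991 library 2, without aged untreated library 1 or 2, and without any 1 of the 3 young libraries, which share the estimate of spread, and it was 2 without aged untreated library 3.

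In the drug-treated aged livers against young untreated livers, 2 of 27 members were called, Sqle at 1.65-fold and Scap at 0.714-fold. These groups differ in both age and drug, so this comparison cannot separate age from drug, here or in the results that follow. Of all genes, 6.88% were called, 2.59% higher and 4.29% lower (263 and 436 genes). Median-of-ratios scaling called 386 genes higher and 228 lower, and quantile normalization called 308 higher and 310 lower. The log2 fold change was above 0 in 15 of 27 members, against 35.1% of all genes, and the median was 0.06 for members and -0.10 for all genes. Without PD-0332991 library 1 the median of members was -0.10. At an unadjusted limma p under 0.05, 3 members were higher and 3 lower, against 6.87% and 18.0% of all genes. Groups did not overlap in 4 members that were higher (Sqle, Fdps, Mvd and Cyp51), against 9.55% of all genes, and in 4 tested members that were lower (Scap, Aacs, Sc5d and Lbr), against 24.4%. The number of members called was 4 without PD-0332991 library 1, 0 without library 2, 1 without library 3 and 1 without any 1 of the young libraries.

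In aged untreated against young untreated livers, no member passed the threshold in limma, against 1.10% of all genes (0.650% higher and 0.453% lower). At an unadjusted limma p under 0.05, 0 members were higher and 2 lower (Scap and Sc5d), against 7.56% and 7.43% of all genes. The log2 fold change was below 0 in 18 of the 27, with a median of -0.12 for members and -0.01 for all genes. Groups did not overlap in 2 members that were higher (Srebf2 and Sqle, 8.82% of all genes) and 4 that were lower (Scap, Sc5d, Lss and Aacs, 9.57%). Without aged untreated library 3, 1 member was called. The 3 comparisons share libraries pair by pair, so their values are given side by side below and are not independent of each other.

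**Figure D3:**
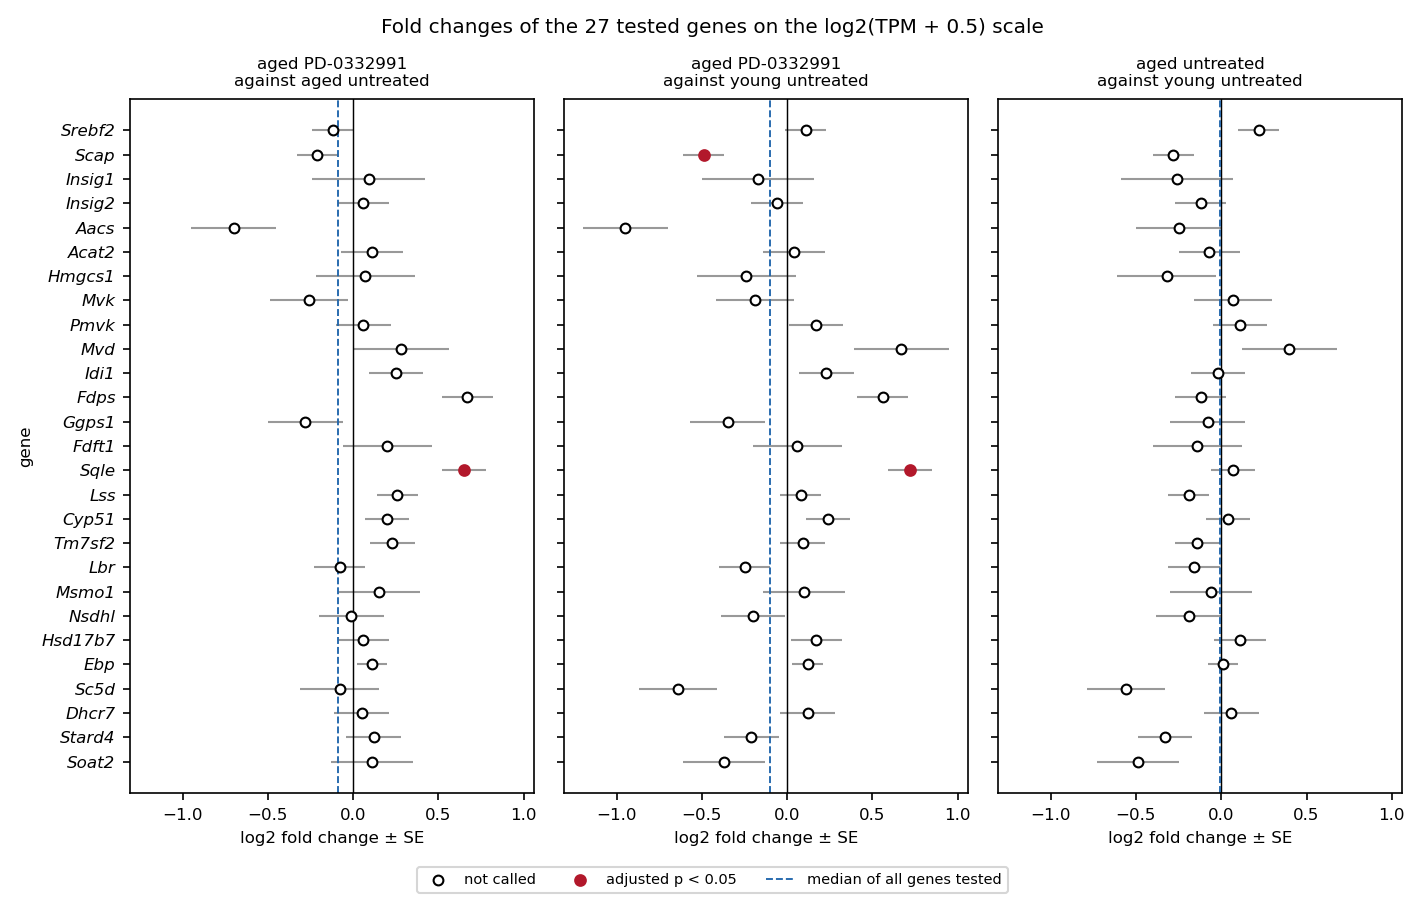
The log2 fold change (± SE, limma, 3 libraries per group) of each of the 27 tested members in the 3 comparisons, with called genes as filled points and the median of all tested genes as a dashed line. Sqle is filled in both PD-0332991 panels and Scap in the PD-0332991 against young panel, and no gene is filled in the aged untreated against young untreated panel.

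Among the tested members that control SREBP-2, only Scap was called, and only in PD-0332991 against young untreated livers. In that comparison, 4.29% of all genes were called lower. Scap (chromosome 9, 110333288 to 110384949, GRCm38) was at 20.6, 15.9 and 18.5 TPM in PD-0332991 libraries, 19.6, 21.1 and 23.1 TPM in aged untreated libraries and 26.8, 26.6 and 24 TPM in young untreated libraries. The highest PD-0332991 library and the highest aged untreated library lay below all 3 young libraries, while the 2 aged groups overlapped. Its log2 fold change was -0.49 ± 0.12 (SE) in PD-0332991 against young untreated livers (limma adjusted p = 0.0316). It was -0.21 ± 0.12 in PD-0332991 against aged untreated livers (limma adjusted p = 0.356) and -0.28 ± 0.12 in aged untreated against young untreated livers (limma adjusted p = 0.294). The call against young livers was lost in limma without PD-0332991 library 2 or 3 (adjusted p = 0.119 and 0.0791), without young untreated library 1, 2 or 3 (0.109, 0.0878 and 0.0617), with median-of-ratios scaling (0.0784) and with no filter on low values (0.0548). In bulk tissue, fewer cells of a type and less RNA per cell cannot be told apart, here or in the results that follow.

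Srebf2 itself, on chromosome 15 at 82147269 to 82205379, did not pass in any comparison. It was at 10.3, 9.37 and 8.38 TPM in PD-0332991 libraries, 10, 10.2 and 10.1 TPM in aged untreated libraries and 9.44, 8.74 and 7.75 TPM in young untreated libraries. The aged untreated libraries lay close together (SD 0.103 TPM, n = 3) and above all young ones, and the drug group spanned both. In the fit, Srebf2 differed by -0.12 ± 0.12 (log2) for PD-0332991 against aged untreated livers and by 0.22 ± 0.12 for aged untreated against young untreated livers (limma adjusted p = 0.64 and 0.402).

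Insig1, a sensor that is itself a target of SREBP-2, had the largest standard error of the members. It was at 124, 108 and 86.4 TPM in PD-0332991 libraries, 71.5, 79.5 and 170 TPM in aged untreated libraries and 148, 123 and 91 TPM in young untreated libraries. The highest and the lowest of all 9 libraries were both aged untreated ones, and all groups overlapped. Its log2 fold change was 0.09 ± 0.33 for the drug against aged untreated livers and -0.26 ± 0.33 for age (limma adjusted p = 0.913 and 0.777). Insig2, the related sensor, was at 83.6, 60.8 and 82.3 TPM in PD-0332991 libraries, 70.8, 71 and 73.4 TPM in aged untreated libraries and 62.7, 84.7 and 88.6 TPM in young untreated libraries. All groups overlapped for Insig2 as well, and the log2 fold changes were 0.06 ± 0.15, -0.06 ± 0.15 and -0.12 ± 0.15 for the drug against aged untreated livers, the drug against young untreated livers and age.

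Aacs and Acat2 supply acetoacetyl-CoA at the head of the pathway, Aacs from ketone bodies. Aacs (chromosome 5, 125475873 to 125517405) was at 23, 11.3 and 10 TPM in PD-0332991 libraries, 22, 25.7 and 20.8 TPM in aged untreated libraries and 29.5, 26.1 and 26 TPM in young untreated libraries. PD-0332991 library 1 sat among the aged untreated libraries, and the other two drug libraries were far below every untreated one. The fitted log2 fold change was -0.70 ± 0.25 for the drug against aged untreated livers (limma adjusted p = 0.187) and -0.95 ± 0.25 against young untreated livers (limma adjusted p = 0.0534). Without PD-0332991 library 1 both comparisons passed, at -1.06 and -1.31 (limma adjusted p = 0.0166 and 0.0018). Acat2 averaged 29.9 ± 6.71 TPM in PD-0332991 livers, 27.6 ± 5.83 TPM in aged untreated livers and 28.7 ± 2.83 TPM in young untreated livers (SD, n = 3 each).

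Of the 7 enzymes from HMG-CoA to the isoprenoid diphosphates, none passed in any comparison. Fdps came closest. On chromosome 3 at 89093588 to 89101967, it was at 458, 320 and 359 TPM in PD-0332991 libraries, 240, 194 and 278 TPM in aged untreated libraries and 239, 252 and 273 TPM in young untreated libraries. All drug libraries lay above all untreated ones, and the untreated groups overlapped. The log2 fold change was 0.67 ± 0.15 against aged untreated and 0.56 ± 0.15 against young untreated livers (limma adjusted p = 0.0555 and 0.0512). The first of these passed with median-of-ratios scaling (limma adjusted p = 0.0301), with array weights (0.0191) and without aged untreated library 3 (0.0136). The second passed in limma with median-of-ratios scaling (adjusted p = 0.0225), array weights (0.014), a filter of 5 TPM (0.0472) and only the 6 libraries compared (0.0161). It also passed without aged untreated library 2 or 3 (limma adjusted p = 0.0354 and 0.0201), which share the estimate of spread.

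Mvd, mevalonate diphosphate decarboxylase, lies on chromosome 8 at 122433596 to 122443422. It was at 31.6, 24.5 and 17.9 TPM in PD-0332991 libraries, 17.7, 14.4 and 30.2 TPM in aged untreated libraries and 16.5, 16.4 and 12.1 TPM in young untreated libraries. The drug libraries were above the young ones, and aged untreated library 3 came near the highest drug library. Its log2 fold change was 0.28 ± 0.28 for the drug against aged untreated livers, 0.67 ± 0.28 for the drug against young untreated livers and 0.40 ± 0.28 for age (limma adjusted p = 0.647, 0.173 and 0.547).

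Hmgcs1, the HMG-CoA synthase of the cytosol and the member with the sterol motif shown above, lies on chromosome 13 at 119690351 to 119708260. It was at 123, 81.8 and 79.1 TPM in PD-0332991 libraries, 61.9, 77.8 and 141 TPM in aged untreated libraries and 99, 115 and 116 TPM in young untreated libraries. The aged untreated group contained both the lowest and the highest library. Its log2 fold change was 0.07 ± 0.29 for the drug against aged untreated livers and -0.32 ± 0.29 for age (limma adjusted p = 0.917 and 0.655). The kinase gene Mvk averaged 12.5 ± 0.537 TPM in PD-0332991 livers, 15.8 ± 6.64 TPM in aged untreated livers and 14.4 ± 2.47 TPM in young untreated livers, and its aged SD came from library 3 at 23.5 TPM. Pmvk, the next kinase, Idi1, an isomerase, and Ggps1, which makes geranylgeranyl diphosphate, had log2 fold changes of 0.06, 0.25 and -0.28 for the drug against aged untreated livers, and their groups overlapped.

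In the squalene and lanosterol steps, all 3 enzymes had log2 fold changes above 0 under the drug against aged untreated livers, and Sqle was called. Sqle lies on chromosome 15 at 59315092 to 59331193. It was at 43.7, 38.7 and 29.2 TPM in PD-0332991 libraries, 22.6, 23 and 24.2 TPM in aged untreated libraries and 21.9, 21.8 and 22.4 TPM in young untreated libraries. The 6 untreated libraries lay close together, and all drug libraries stood above them, with a spread of their own (37.2 ± 7.4 TPM, against 23.3 ± 0.816 TPM in aged untreated and 22.1 ± 0.32 TPM in young untreated livers, SD, n = 3 each). On the log2 scale the fold change was 0.65 ± 0.13 against aged untreated livers (limma adjusted p = 0.0375) and 0.72 ± 0.13 against young untreated livers (limma adjusted p = 0.0107). For age it was 0.07 ± 0.13 (limma adjusted p = 0.844).

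The call of Sqle against aged untreated livers was close to the threshold. Over the 19 alternatives its log2 fold change ran between 0.52 and 0.81 and its limma adjusted p between 0.0227 and 0.146. It was lost in limma without PD-0332991 library 1 or 2 (adjusted p = 0.099 and 0.146), without aged untreated library 1 or 2 (0.063 and 0.104), and without young untreated library 1, 2 or 3 (0.0674, 0.0691 and 0.0598). It was also lost in limma with no filter (adjusted p = 0.0832), with neither trend nor robust variance (0.0641) and with only the 6 libraries compared (0.115). Against young untreated livers it was lost in limma without PD-0332991 library 2 (adjusted p = 0.055).

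Fdft1, squalene synthase, and Lss, lanosterol synthase, flank Sqle in the pathway. Fdft1 was at 69.7, 52 and 46.4 TPM in PD-0332991 libraries, 37.6, 37.9 and 77.2 TPM in aged untreated libraries and 54.3, 51.9 and 52.1 TPM in young untreated libraries. Its aged untreated libraries fell on both sides of every other library. Lss was at 18.6, 14.6 and 14.2 TPM in PD-0332991 libraries, 12.7, 12.2 and 14 TPM in aged untreated libraries and 15.3, 14.2 and 14.9 TPM in young untreated libraries. Every aged untreated library was below every other one, by a small margin, and the log2 fold change was 0.26 ± 0.12 for the drug against aged untreated livers and -0.19 ± 0.12 for age (limma adjusted p = 0.268 and 0.497).

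**Figure D4:**
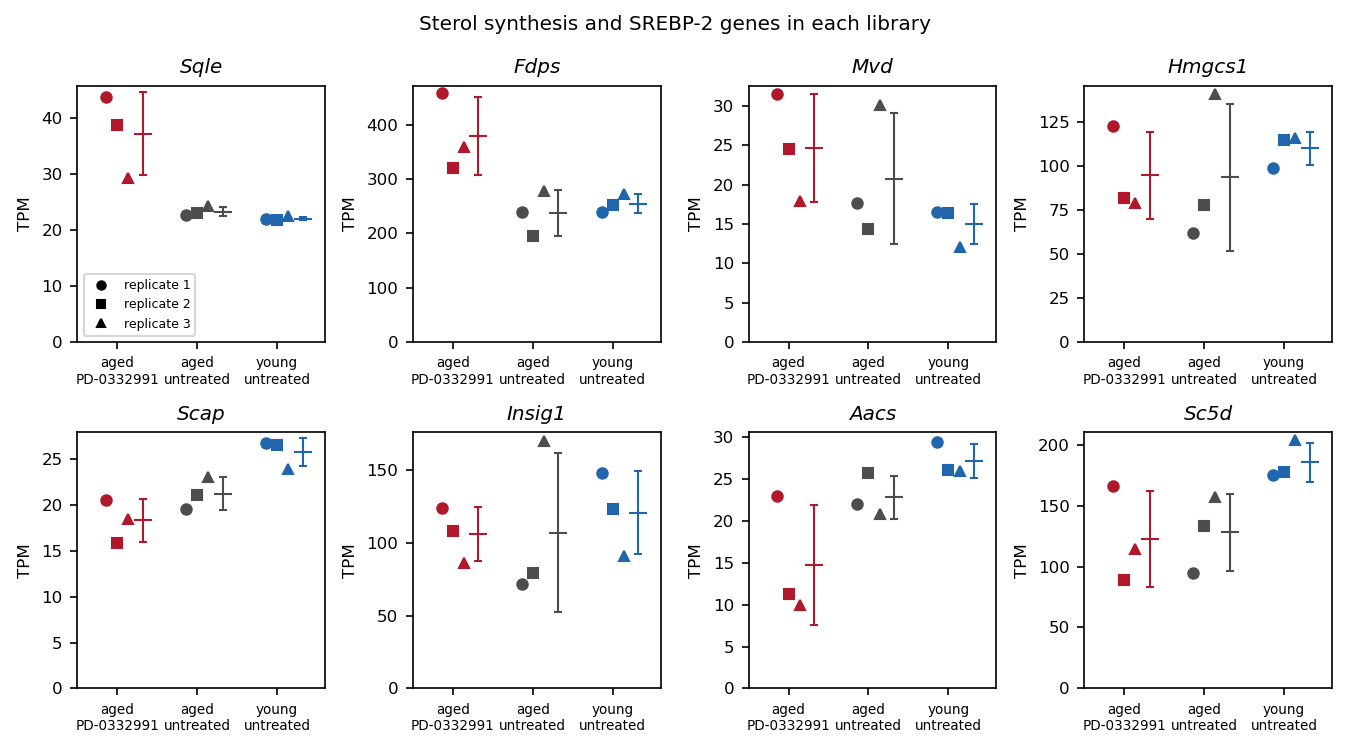
TPM of 8 members in each library (points, with the shape giving the replicate number) and the mean ± SD of each group (bar and error bar), for PD-0332991, aged untreated and young untreated livers from left to right. For Sqle and Fdps the 3 PD-0332991 libraries lie above all 6 untreated libraries, for Scap the 3 PD-0332991 libraries lie below the 3 young untreated ones, and for Hmgcs1 and Insig1 the aged untreated libraries span the widest range.

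Of the 9 enzymes that turn lanosterol into cholesterol, none passed in any comparison. Sc5d, a sterol desaturase on chromosome 9 at 42251592 to 42264300, had the largest log2 fold changes of the 9 in both comparisons with young livers. It was at 166, 88.7 and 114 TPM in PD-0332991 libraries, 94.4, 133 and 157 TPM in aged untreated libraries and 175, 178 and 204 TPM in young untreated libraries. All 6 aged libraries, treated or not, lay below the young ones. In limma the log2 fold change was -0.08 ± 0.23 for the drug against aged untreated livers, -0.64 ± 0.23 for the drug against young untreated livers and -0.56 ± 0.23 for age (limma adjusted p = 0.887, 0.126 and 0.298). The sign of the first of these turned with median-of-ratios scaling, to 0.03. Without PD-0332991 library 1 the second passed (-0.88, limma adjusted p = 0.0394).

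The other 8 post-lanosterol genes are Cyp51, a demethylase, Tm7sf2 and Lbr, sterol reductases, Msmo1, Nsdhl and Hsd17b7, which together remove methyl groups, Ebp, an isomerase, and Dhcr7, a late reductase. Cyp51 averaged 56.6 ± 4.52 TPM in PD-0332991 livers, 49.5 ± 8.22 TPM in aged untreated livers and 47.9 ± 4.63 TPM in young untreated livers (SD, n = 3 each). Its drug libraries lay above the young ones, the lowest at 53.3 TPM against the highest young library at 52.9 TPM (log2 fold change 0.24 ± 0.13, limma adjusted p = 0.281). Lbr averaged 2.91 ± 0.34 TPM in PD-0332991 livers and 3.53 ± 0.17 TPM in young untreated livers, with no overlap (-0.25 ± 0.15, limma adjusted p = 0.338). Ebp was the steadiest, at 163 to 182 TPM in PD-0332991 libraries, 148 to 168 TPM in aged untreated libraries and 149 to 166 TPM in young untreated libraries. Over the 9 post-lanosterol genes, the log2 fold change of the drug against aged untreated livers ran between -0.08 and 0.23.

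Transport and esterification were followed through Stard4, a carrier of sterols between membranes, and the acyltransferases Soat1 and Soat2, which store cholesterol as esters. Soat2, the form known from hepatocytes, was at 17.1, 13 and 13.4 TPM in PD-0332991 libraries, 9.45, 12.5 and 19.6 TPM in aged untreated libraries and 22.9, 19 and 15.2 TPM in young untreated libraries. All groups overlapped, and aged untreated library 3 was again the highest of its group. Its log2 fold change was 0.11 ± 0.24 for the drug against aged untreated livers and -0.49 ± 0.24 for age (limma adjusted p = 0.842 and 0.379). Without aged untreated library 3 the age difference passed (-0.76, limma adjusted p = 0.0291), and Soat2 was then the 1 member called. Soat1, the form of many other cell types, was at 0.262, 0.328 and 0.341 TPM in PD-0332991 libraries, 0.51, 0.152 and 0.338 TPM in aged untreated libraries and 0.352, 0.413 and 0.596 TPM in young untreated libraries. It stayed below 1 TPM throughout and was not tested. Stard4 averaged 13.5 ± 2.16 TPM in PD-0332991 livers, 12.4 ± 2.23 TPM in aged untreated livers and 15.6 ± 1.97 TPM in young untreated livers.

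Around the 28 members, 47 further genes of the sterol circuit, the isoprenoid branches and the electron donors of sterol enzymes were listed, and 46 of them were tested. None was called for the drug against aged untreated livers or for age in limma, and at an unadjusted limma p under 0.05 each of these comparisons had 1 gene higher and 1 lower, against 4.96% and 13.3% of all genes for the drug and 7.56% and 7.43% for age. Against young untreated livers, the drug group had 1 gene higher (Por) and 1 lower (Srebf1), against 2.59% and 4.29% of all genes. At an unadjusted limma p under 0.05 this comparison had 2 genes higher and 4 lower, against 6.87% and 18.0% of all genes. Groups did not overlap there in 3 genes that were higher and 8 that were lower, against 9.55% and 24.4%. Of these, Syvn1 had the largest log2 fold change, at 1.86 ± 0.47, and was not called (limma adjusted p = 0.0594). It was at 94.4 to 207 TPM in PD-0332991 libraries, 41.9 to 132 TPM in aged untreated libraries and 28 to 48.4 TPM in young untreated libraries. Syvn1 passed in 5 of 19 alternatives. The number called against young untreated livers was 1 without PD-0332991 library 1, 0 without library 2 or 3, 4 without aged untreated library 3 and 1 without any 1 of the young libraries. Without aged untreated library 3 it was 2 for the drug against aged untreated livers and 2 for age, and without aged untreated library 1 it was 1 for the drug against aged untreated livers. The median log2 fold change over the 46 was -0.06 for the drug against aged untreated livers, -0.04 for the drug against young untreated livers and -0.05 for age.

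Srebf1, the sister gene of Srebf2 (chromosome 11, 60199084 to 60224186), was at 16.1, 9.26 and 13.1 TPM in PD-0332991 libraries, 28.3, 30.2 and 64 TPM in aged untreated libraries and 37, 35.3 and 27.2 TPM in young untreated libraries. All drug libraries were below all untreated ones, which was not so for Srebf2. The fitted log2 fold change was -1.57 ± 0.32 against aged untreated livers (limma adjusted p = 0.0529) and -1.36 ± 0.32 against young untreated livers (limma adjusted p = 0.0377). In limma the call against young untreated livers was lost without PD-0332991 library 1, 2 or 3 (adjusted p = 0.0502, 0.132 and 0.0976) and without young untreated library 1, 2 or 3 (0.124, 0.0965 and 0.0737). The difference from aged untreated livers passed without aged untreated library 1 (limma adjusted p = 0.0366) or 3 (0.0106), and in limma with quantile normalization (0.0368), array weights (0.0292) and neither trend nor robust variance (0.0423). With no filter, the call against young untreated livers was lost in limma (adjusted p = 0.051).

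Por, the cytochrome P450 reductase that passes electrons to Cyp51 and Sqle (chromosome 5, 135670040 to 135735326), was at 79, 87.4 and 98.5 TPM in PD-0332991 libraries, 85.2, 90.4 and 70.8 TPM in aged untreated libraries and 59, 52.1 and 58.1 TPM in young untreated libraries. Both aged groups lay above the young one and overlapped each other. The log2 fold change was 0.64 ± 0.12 for the drug against young untreated livers (limma adjusted p = 0.012) and 0.53 for age (limma adjusted p = 0.0616). The call against young untreated livers was lost in limma without PD-0332991 library 2 or 3 (adjusted p = 0.0534 and 0.0533), and the age difference passed without aged untreated library 3 (0.0077) and with array weights (0.0177). The Golgi proteases that release SREBP-2 are Mbtps1 and Mbtps2. Mbtps1 was at 8.73, 8.94 and 9.34 TPM in PD-0332991 libraries, 9.57, 9.27 and 9.46 TPM in aged untreated libraries and 11.5, 9.53 and 10.7 TPM in young untreated libraries. Its drug libraries lay just below the young ones, and it did not pass in any comparison. Mbtps2 was at 0.76 to 1.1 TPM in PD-0332991 libraries, 0.764 to 0.999 TPM in aged untreated libraries and 0.811 to 1.08 TPM in young untreated libraries, and was not tested.

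Gene groups that report the state of the animal also differed between libraries. Summed clock genes were 104 to 156 TPM in PD-0332991 libraries, 45.1 to 104 TPM in aged untreated libraries and 72.6 to 91.2 TPM in young untreated libraries. Not all clock genes followed the sum. Arntl, Cry1 and Npas2 were lower in all PD-0332991 libraries than in all aged untreated libraries. Arntl was at 0.989 to 2.66 TPM against 3.36 to 5.23 TPM, and Cry1 at 1.42 to 2.7 TPM against 4.4 to 6.02 TPM. Of 11 tested clock genes, limma called 2 for the drug against aged untreated livers, against 1.45% of all genes. It called 1 for age and 1 for the drug against young untreated livers (1.10% and 6.88%). Summed acute phase genes were 20200 to 30100 TPM in PD-0332991 libraries, 9630 to 28700 TPM in aged untreated libraries and 7270 to 11900 TPM in young untreated libraries. Summed genes of feeding and fasting were 1510 to 2540 TPM in PD-0332991 libraries, 892 to 1550 TPM in aged untreated libraries and 1090 to 1800 TPM in young untreated libraries. The treated group was therefore above the young group in the clock and acute phase sums, without overlap. The part of these states in the differences of Sqle, Scap, Fdps, Aacs and Srebf1 was not tested.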

How the data were processed

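Gene expression in 9 mouse liver libraries was taken from deposited tables, 1 per library. The authors deposited TPM values per gene symbol. Per the labels' protocols, libraries were paired-end and made with an Illumina TruSeq RNA kit, and per the submitters' processing notes abundance was estimated with kallisto on the build mm10. Version, annotation and strand were not given in the sources used here. TPM keeps no depth, so depth is unknown and values carry no counting interval.

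Repeated symbols that were dates (4 rows) were left out. Genes with a TPM of at least 1 in at least 3 libraries (10161) were tested as log2(TPM + 0.5), where changes of low genes come out too small. All 9 libraries were fitted with limma 3.58.1 in R 4.3.3, group as the only term, with an intensity trend and robust variance. Contrasts were two-sided, with Benjamini-Hochberg adjustment over all tested genes and a call at 0.05. The limma step was tested on simulated data. Tables were joined with Python 3.11.15, and transcript copies were searched with BLAST 2.17.0 in GENCODE transcripts. Coordinates are GRCm38. An exact permutation test of 3 against 3 libraries cannot go below p = 0.1 and was not used.

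The 28 members and all lists were chosen with earlier results of these data known. Named in full were members called in any comparison, the 3 with the largest change in each, and Srebf2, Scap, Insig1, Insig2, Hmgcs1, Sqle, Soat1 and Soat2, with called genes, Mbtps1, Mbtps2 and Srebf1 of the related lists. Fdft1, Lss, Cyp51, Lbr, Ebp, Mvk, Syvn1 and the library comparisons were described after their values were seen. Alternatives were 10 other settings and leaving out each of the 9 libraries.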

Additional observations from a re-analysis of the deposited data

How the results depend on the processing

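Of 59 gene differences recomputed under 19 alternatives, 35 kept their direction and their side of the threshold in all. All 5 calls were lost in at least 1 alternative, 10 differences were called in at least 1, and 9 uncalled ones changed sign in at least 1. The cause was not tested. TPM tables hold no depth, so the precision of single values cannot be given.

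For PD-0332991 against aged untreated livers, members called numbered 1, and 0 with no filter, with neither trend nor robust variance and with only the 6 libraries compared, 2 with median-of-ratios scaling and array weights, and 0 to 2 with 1 library left out. Related genes called numbered 0, 1 with quantile normalization, array weights or neither trend nor robust variance, and 0 to 2 with 1 library left out. All genes called numbered 147, 29 with no filter, 271 with array weights, 35 with the 6 libraries, and 7 to 392 with 1 library left out. For PD-0332991 against young untreated livers, members called numbered 2, 1 with no filter, and 0 to 4 with 1 library left out. Related genes called numbered 2, 1 with no filter, 4 with array weights, and 0 to 4 with 1 library left out. All genes called numbered 699, 1354 with array weights, 1293 with the 6 libraries, and 151 to 1263 with 1 library left out. The median of members was 0.06, and -0.10 to 0.11 with 1 library left out. For age, members called numbered 0, and 0 to 1 with 1 library left out. Related genes called numbered 0, 2 with array weights, and 0 to 2 with 1 library left out. All genes called numbered 112, 62 with no filter, 490 with array weights, 66 with neither trend nor robust variance, 49 with the 6 libraries, and 15 to 696 with 1 library left out.

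Between groups, correlations of residuals ran from -0.22 to 0.166 for same-numbered libraries and from -0.222 to 0.229 for different-numbered ones. The labels do not say that the numbers pair libraries, and these correlations cannot decide it. With a replicate block, members called for the drug against aged untreated livers numbered 0 (all genes 60, Sqle limma adjusted p = 0.0725), and related genes called for the drug against young untreated livers numbered 1 (Srebf1 limma adjusted p = 0.0594). Members called against young untreated livers numbered 2 with the block as without it, but Scap passed no longer (limma adjusted p = 0.0571) and Aacs passed (0.0489).

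Of the uncalled log2 fold changes that changed sign, those for the drug against aged untreated livers ran, with 1 library left out, from -0.18 to 0.41 for Hmgcs1, -0.14 to 0.48 for Insig1, -0.02 to 0.21 for Insig2, -0.12 to 0.39 for Soat2 and -0.32 to 0.13 for Sc5d. Sc5d was also at 0.03 with median-of-ratios scaling and 0.13 with array weights, and Mbtps1 at 0.02 with quantile normalization and 0.04 with median-of-ratios scaling. Against young untreated livers, Insig2 ran from -0.21 to 0.09 with 1 library left out and was at 0.07 with median-of-ratios scaling and 0.03 with array weights. For age, Fdps ran from -0.24 to 0.02 and Srebf1 from -0.17 to 0.42 with 1 library left out, and Srebf1 was at -0.05 with array weights.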
